A study of Mus musculus with 6 samples.

Results

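The 10 genes described here encode transcription regulators of the Zeb, Snail, Twist and Id families. The set is defined by gene symbol and was chosen with earlier results of these data known. All 10 (Zeb1, Zeb2, Snai1, Snai2, Snai3, Twist1, Twist2, Id1, Id2 and Id3) were found among 19938 genes, each with 1 probe set on a whole-transcript array. They were measured in cultured keratinocytes, which build the epidermis, from the skin of C57BL/6 mouse embryos at E18.5. After 2 to 5 days of growth the cells received calcium, a signal to differentiate, for 3 to 5 days more. No group without calcium was analysed here.

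Each of 3 genotypes was measured on 2 arrays, and every array held RNA pooled from 2 mice. The control group is labelled Ovol2flox/+ together with either Ovol1+/- or K14-Cre, and which of the pair lies on which array is not stated. The Ovol1 KO group is Ovol1-/-. The double knockout (DKO) group is Ovol2flox/-;K14-Cre; Ovol1-/-. It thus lacks Ovol1 in every cell, carries 1 Ovol2 allele lost throughout, and loses the other where the K14 promoter drives Cre, in basal keratinocytes and their descendants. Controls of the second kind also carry Cre, and every control carries at least 1 altered Ovol allele. The labels call the arrays biological replicates of littermates, all female.

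Zeb and Snail proteins are zinc finger repressors that bind E-box sequences in DNA and silence epithelial genes such as the one for E-cadherin. Twist proteins are basic helix-loop-helix factors that bind E-boxes as dimers with E proteins, while Id proteins lack a DNA-binding region and hold E proteins away from DNA. All of these families are known from the epithelial-mesenchymal transition (EMT), the loss of epithelial character in development, wound repair and cancer. Ovol1 and Ovol2 are zinc finger repressors of epithelia, and Zeb1 is a known target of Ovol repression. The series asked how expression differs when differentiating keratinocytes lack Ovol1 alone or both Ovol genes.

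Zeb1 and Zeb2 mRNAs are also held down by small RNAs of the miR-200 family and by miR-205, which are shown because their pairing letters define the families and because the array reads some of their precursors. The mature sequences, from RefSeq on GRCm38.p6, carry the seed (bases 2 to 8) in capitals.
mmu-miR-200b-3p: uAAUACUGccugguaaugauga
mmu-miR-200c-3p: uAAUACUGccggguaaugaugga
mmu-miR-429-3p: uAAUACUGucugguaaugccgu
mmu-miR-200a-3p: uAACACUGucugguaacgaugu
mmu-miR-141-3p: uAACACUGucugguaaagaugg
mmu-miR-205-5p: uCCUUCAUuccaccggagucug
The first 3 share 1 seed, and miR-200a and miR-141 share another that differs from it by U4C, counted from the 5′ end. On the minus strand, miR-200b-3p lies at chr4:156055685-156055706, miR-200a-3p at chr4:156054911-156054932, miR-429-3p at chr4:156053916-156053937, miR-200c-3p at chr6:124718324-124718346, miR-141-3p at chr6:124717917-124717938 and miR-205-5p at chr1:193507503-193507524.

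All levels below are log2(intensity + 16) after quantile normalization, so 1 unit is about 2-fold and fold changes of dim genes are understated. Levels are compared between arrays for the same gene, never between genes, since probe sets differ in brightness. Group means carry the SD over 2 arrays, and differences carry the SE and adjusted p from limma. Called genes are those with an adjusted p below 0.05 over all 19938 genes. As the arrays hold no detection call, the level of 1015 olfactory receptor genes, which are not expected in keratinocytes, serves as a rough guide to background: their median was 5.93 and their 95th percentile 7.42. This guide was chosen after the values were seen, and background differs from probe set to probe set.

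The arrays held keratinocyte RNA, with Krt14 at 13.61 to 13.67, Krt5 at 13.68 to 13.94 and the epidermal master regulator Trp63 at 10.96 to 11.88 on all 6. Against the female label, sex-linked genes split the arrays in 2 sets. Xist, expressed from the silenced X chromosome of female cells, lay at 4.59 to 4.71 on both control arrays and Ovol1 KO 1, but at 11.97 to 12.26 on Ovol1 KO 2 and both DKO arrays. Kdm5d, on the Y chromosome, was at 14.70 on the first 3 of these and at 7.50 to 7.64 on the others. The DKO difference from control therefore cannot be told apart from this split, whereas Ovol1 KO 2 shares the state of the DKO arrays. Ovol1 lay between 9.85 and 10.59 and Ovol2 between 8.12 and 9.01 on the 6 arrays, with no gap between groups that would check the labels, and whether their probe sets lie in the deleted parts is not given in the sources used here.

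Among the 10 regulators, Zeb1 alone was called, and it rose in DKO cells. In DKO against control, 1 member rose, 0 fell and 9 did not pass, beside a background of 3.2% of all genes called in either direction and 0.943% called higher. In DKO against Ovol1 KO the counts were again 1 risen, 0 fallen and 9 not passed, beside 2.15% in either direction and 0.657% higher. In Ovol1 KO against control, limma called 0 of 10 members and 0 of all genes (0%), and 0 members and 162 of all genes had an unadjusted p below 0.05. These comparisons share arrays in pairs, so their values are given side by side and not as independent evidence.

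**Figure D1:**
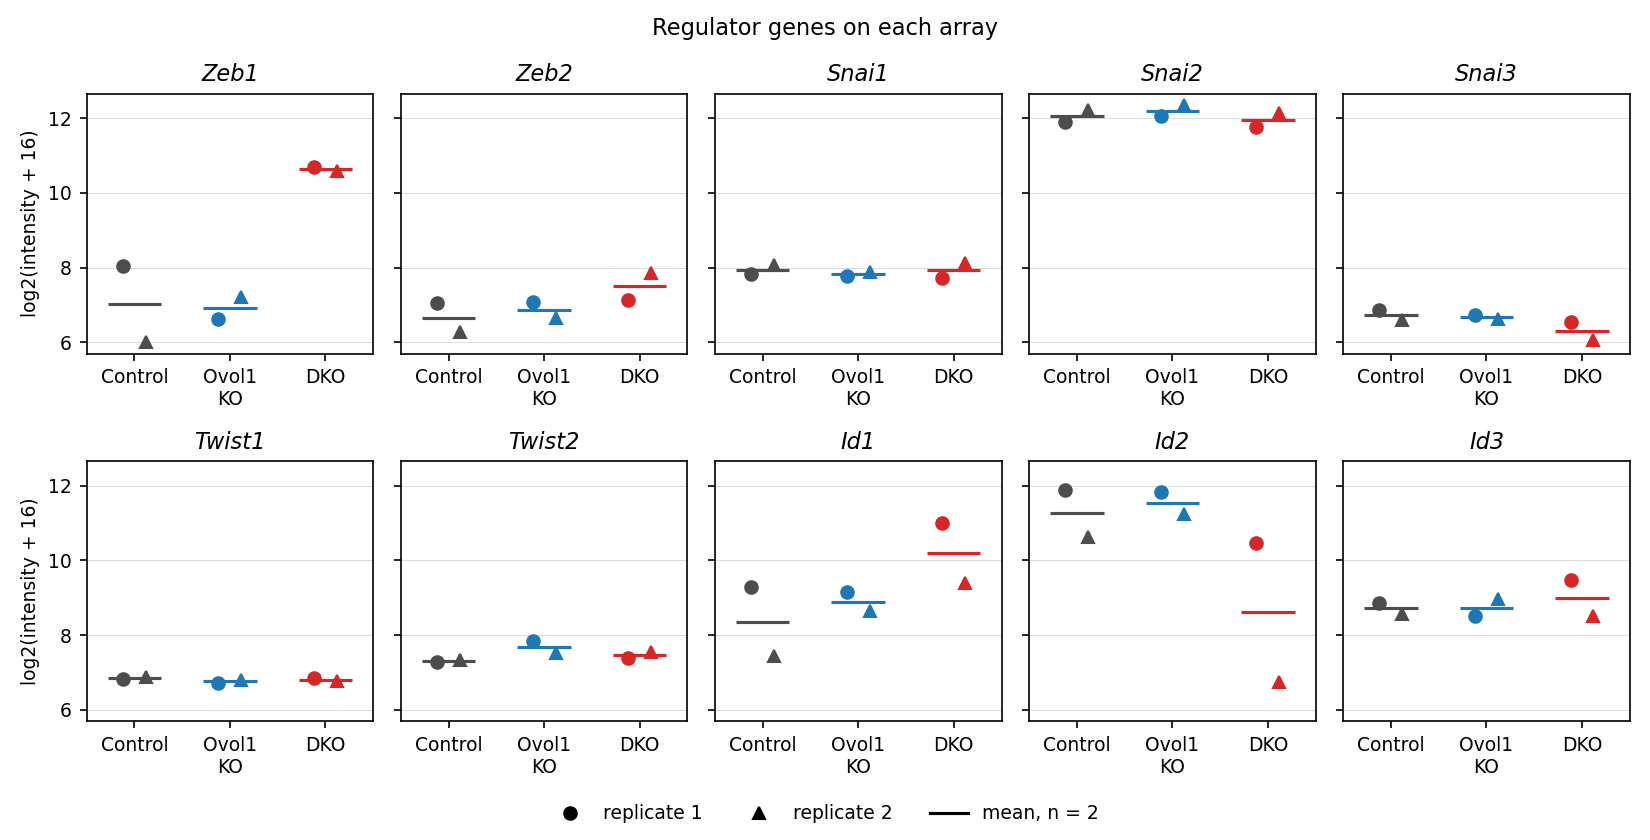
Level of each regulator gene on each array, as log2(intensity + 16) on the vertical axis, by genotype. Circles are replicate 1, triangles replicate 2 and bars the mean of 2 arrays. Zeb1 stands at 10.59 and 10.69 on the DKO arrays, above all other arrays, while Id2 spreads from 6.75 to 10.47 within the DKO group.

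Zeb1, a repressor of Cdh1 and other epithelial genes, lay at 8.04 and 6.01 on control arrays 1 and 2, 6.63 and 7.20 on Ovol1 KO arrays 1 and 2, and 10.69 and 10.59 on DKO arrays 1 and 2. On the deposited linear scale these levels were 240.1 and 48.4, 90.7 and 126.9, and 1660 and 1447. Both DKO arrays lay above all 4 others, and the control and Ovol1 KO groups overlapped. The control mean was 7.03 ± 1.44 (SD, n = 2), the Ovol1 KO mean 6.92 ± 0.41 and the DKO mean 10.64 ± 0.07. Of these, the control and Ovol1 KO means lay below the 95th percentile of the olfactory genes.

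Zeb1 was 3.61 higher in DKO than in control (SE 0.59, 95% interval 2.21 to 5.02, limma adjusted p = 0.027), or 12.2-fold on this scale. Against Ovol1 KO it was 3.72 higher (SE 0.59, interval 2.32 to 5.13, adjusted p = 0.030), or 13.2-fold. Since the control and Ovol1 KO means were not above the olfactory guide, these sizes depend on background and offset: offsets of 1 and 64 gave 3.83 and 3.13 against control, called in both. Between Ovol1 KO and control the difference was -0.11 (SE 0.59, interval -1.51 to 1.29, adjusted p = 1), an interval that still holds changes of more than 2-fold either way.

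With single arrays left out, Zeb1 stayed higher in DKO but was not always called. The fitted rise over control was 4.60 without control 1 (adjusted p = 0.00033) and 2.60 without control 2 (adjusted p = 0.0034). It was 3.54 without DKO 1 (adjusted p = 0.15), 3.69 without DKO 2 (adjusted p = 0.12), 3.63 without Ovol1 KO 1 (adjusted p = 0.059) and 3.60 without Ovol1 KO 2 (adjusted p = 0.057). The rise was thus 2.60 or more in these fits, while the call was lost without any one of these last 4 arrays. The highest adjusted p over all alternatives was 0.72, from limma with the Xist level as a covariate, where the rise was 3.01 (SE 1.11). Xist was low on both control arrays and high on both DKO arrays. The slope of this covariate therefore rests almost only on the 2 Ovol1 KO arrays, and the SE was 0.59 without it. Calls lost with it, here and below, do not separate genotype from the split by Xist.

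Within the arrays that share the high Xist level, Zeb1 was higher on DKO 1 than on Ovol1 KO 2 by 3.48 and on DKO 2 by 3.38. In the fit without Ovol1 KO 1, which compares these same arrays, the rise was 3.45 (SE 0.78, adjusted p = 0.26). The call against Ovol1 KO was also lost without Ovol1 KO 2 (3.996, adjusted p = 0.096), DKO 1 (3.64, adjusted p = 0.15) or DKO 2 (3.81, adjusted p = 0.14), and its adjusted p ran from 0.00015 to 0.30 over all alternatives. Among the arrays with the low Xist level, control 1 was 1.41 above Ovol1 KO 1, and the difference of control 2 from it was -0.62. Between the DKO arrays and the 1 Ovol1 KO array of like Xist level, the Zeb1 distance was near that over all arrays, but did not pass. This distance rests on that 1 Ovol1 KO array, and no DKO array had the low Xist level.

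**Figure D2:**
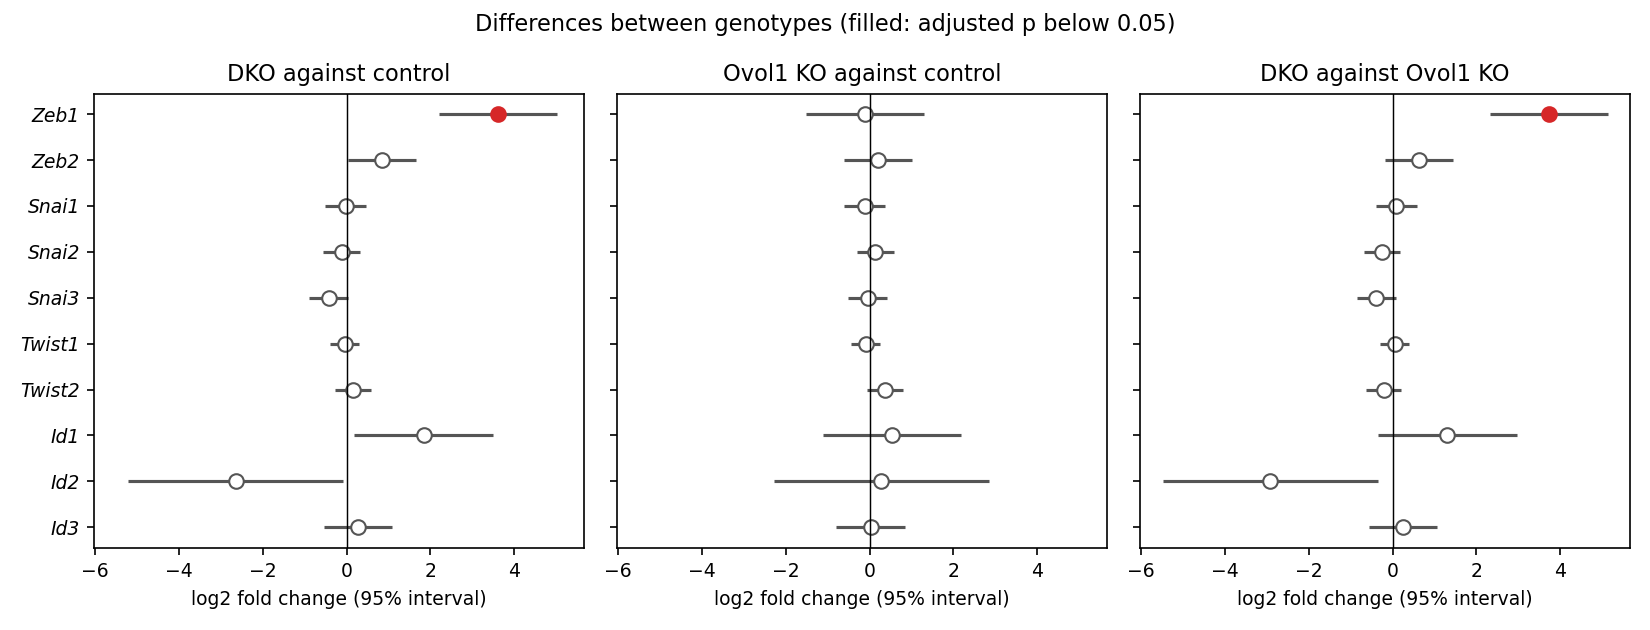
Difference in level (log2 fold change, horizontal axis) of each regulator in the 3 comparisons, with 95% intervals from limma. Filled points were called, which holds for Zeb1 at 3.61 in DKO against control and at 3.72 in DKO against Ovol1 KO.

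Zeb2, the close relative of Zeb1 that is also expressed in melanocytes and immune cells, lay at 7.05 and 6.26 in control, 7.08 and 6.64 in Ovol1 KO, and 7.14 and 7.85 in DKO. Both DKO values exceeded the other 4, but DKO 1 did so by a small margin. The difference was 0.84 in DKO against control (SE 0.34, unadjusted p = 0.044, limma adjusted p = 0.32) and 0.63 in DKO against Ovol1 KO (SE 0.34, adjusted p = 0.50), and neither passed. The group means ran from 6.66 to 7.50, around the 95th percentile of the olfactory genes. Whether the Zeb1 and Zeb2 differences themselves differ was not tested.

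The precursor of each miR-200 family member with a probe set of its own did not pass in any comparison. This set was chosen after the values were seen, and such probe sets read the hairpin or its host transcript, not the mature RNA. Mir200c lay at 7.35 and 7.58 in control, 7.54 and 7.20 in Ovol1 KO, and 7.10 and 6.91 in DKO (difference from control -0.46, SE 0.19, limma adjusted p = 0.33). Mir141, its neighbour on chromosome 6, lay at 6.37 and 6.39, 6.25 and 6.41, and 5.99 and 5.96 in the same order (-0.40, SE 0.14, adjusted p = 0.22). Mir200b lay at 7.35 and 7.51, 8.24 and 7.45, and 7.194 and 7.002 (-0.33, SE 0.27, adjusted p = 0.70). For all 3, the DKO arrays lay below the others. These DKO levels were between the median (5.93) and the upper level (7.42) of the olfactory guide, so the differences depend on background. Of all genes, 21.5% were lower in DKO than in control without overlap. That share leaves out the Ovol1 KO arrays, and the share below all other arrays was not counted. The remaining precursors differed from control by 0.20 for Mir200a (adjusted p = 0.70) and 0.74 for Mir205 (adjusted p = 0.40). The probe set for miR-429 carries a second gene symbol and was not used.

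None of the 3 Snail genes passed in any of the 3 comparisons. Snai2, also called Slug, is the Snail member known from basal keratinocytes and wound edges, and it lay at 11.90 and 12.23 in control, 12.06 and 12.35 in Ovol1 KO, and 11.76 and 12.14 in DKO. The groups overlapped, with a difference of -0.12 in DKO against control (SE 0.18, interval -0.55 to 0.32, limma adjusted p = 0.88). At means from 11.95 to 12.20, it lay far above the olfactory range in all 3 genotypes.

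Snai1, the founding member in EMT studies, lay at 7.82 and 8.06 in control, 7.78 and 7.87 in Ovol1 KO, and 7.72 and 8.13 in DKO. These ranges overlapped, and the DKO difference from control was -0.02 (SE 0.21, interval -0.51 to 0.47, adjusted p = 0.99). Snai3, a member expressed mainly in muscle and blood cells, lay at 6.86 and 6.61, 6.74 and 6.63, and 6.53 and 6.07. Both DKO values were below the other 4, at a difference from control of -0.43 (SE 0.20, adjusted p = 0.40). The Snai3 means of 6.30 to 6.73 lay within the olfactory range. For Snai1 and Snai2, the intervals in DKO against control exclude a change of 2-fold in either direction on this scale.

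The Twist genes were dim, and Twist1 was nearly flat. Twist1 lay at 6.83 and 6.88 in control, 6.71 and 6.81 in Ovol1 KO, and 6.84 and 6.77 in DKO, a range of 0.16 over all arrays that was the narrowest among the 10 genes. Its DKO difference from control was -0.05 (SE 0.14, interval -0.39 to 0.29, limma adjusted p = 0.95). Twist2 lay at 7.27 and 7.33, 7.84 and 7.51, and 7.38 and 7.53. Both Ovol1 KO values lay above both control values, by 0.37 on average (SE 0.18, interval -0.05 to 0.80, adjusted p = 1), and the DKO difference from control was 0.16 (SE 0.18, adjusted p = 0.81). Twist1 lay below the 95th percentile of the olfactory genes on every array, while Twist2, from 7.27 to 7.84, lay around it.

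The Id genes varied more between replicates than the Snail and Twist genes. Id1, a target of bone morphogenetic protein (BMP) signals through Smad proteins, lay at 9.28 and 7.43 in control, 9.15 and 8.64 in Ovol1 KO, and 11.01 and 9.39 in DKO. Both DKO values exceeded the other 4, although DKO 2 was only just above control 1. The difference was 1.84 in DKO against control (SE 0.70, interval 0.19 to 3.50, unadjusted p = 0.034, limma adjusted p = 0.29) and 1.31 in DKO against Ovol1 KO (SE 0.70, adjusted p = 0.50). Leaving out control 1 raised the first value to 2.75 (adjusted p = 0.041), and leaving out control 2 lowered it to 0.92 (adjusted p = 0.62). Without DKO 1 it was 1.01 and without DKO 2 it was 2.67, and the adjusted p ran from 0.040 to 0.85 over all alternatives.

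Id2, which is expressed in surface epithelia and has a central place in lymphoid cells, lay at 11.90 and 10.62 in control, 11.83 and 11.24 in Ovol1 KO, and 10.47 and 6.75 in DKO. The linear intensities were 3915 and 1542, 3643 and 2398, and 1445 and 101.4. DKO 2 lay far below every other array, and DKO 1 was only slightly below control 2. The mean difference was -2.65 in DKO against control (SE 1.08, interval -5.21 to -0.08, unadjusted p = 0.045, limma adjusted p = 0.32) and -2.92 in DKO against Ovol1 KO (SE 1.08, adjusted p = 0.31). It depended on 1 array: against control it was -0.78 without DKO 2 (adjusted p = 0.68) and -4.48 without DKO 1 (adjusted p = 0.032), and against Ovol1 KO leaving out single arrays gave -4.76 to -1.06. The adjusted p against control ran from 0.032 to 0.93 over all alternatives. A gap between replicates as wide as that of Id2 in DKO, 3.72, was seen in 0.0301% of genes.

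Id3, another BMP target, lay at 8.87 and 8.56 in control, 8.50 and 8.97 in Ovol1 KO, and 9.47 and 8.52 in DKO. The 3 groups overlapped, and the DKO difference from control was 0.28 (SE 0.34, interval -0.53 to 1.09, adjusted p = 0.83). The sign turned without DKO 1, at -0.19.

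Id1 and Id2, neither of which passed, differed in sign in DKO against control. This pair was chosen after the values were seen, and the following is a description of 6 arrays without a test. In each of the 3 genotypes replicate 1 was higher than replicate 2 for both genes, by 1.85, 0.51 and 1.63 for Id1 and by 1.27, 0.58 and 3.72 for Id2, in the order control, Ovol1 KO and DKO. Relative to its own control mean, Id1 minus Id2 was 0.29 and -0.29 on the control arrays and 0.22 and 0.30 on the Ovol1 KO arrays, but 3.44 on DKO 1 and 5.54 on DKO 2. The DKO arrays held the highest values of this quantity, which follows from Id1 being highest and Id2 lowest on them. They also lay further apart from each other than the arrays of either other genotype.

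**Figure D3:**
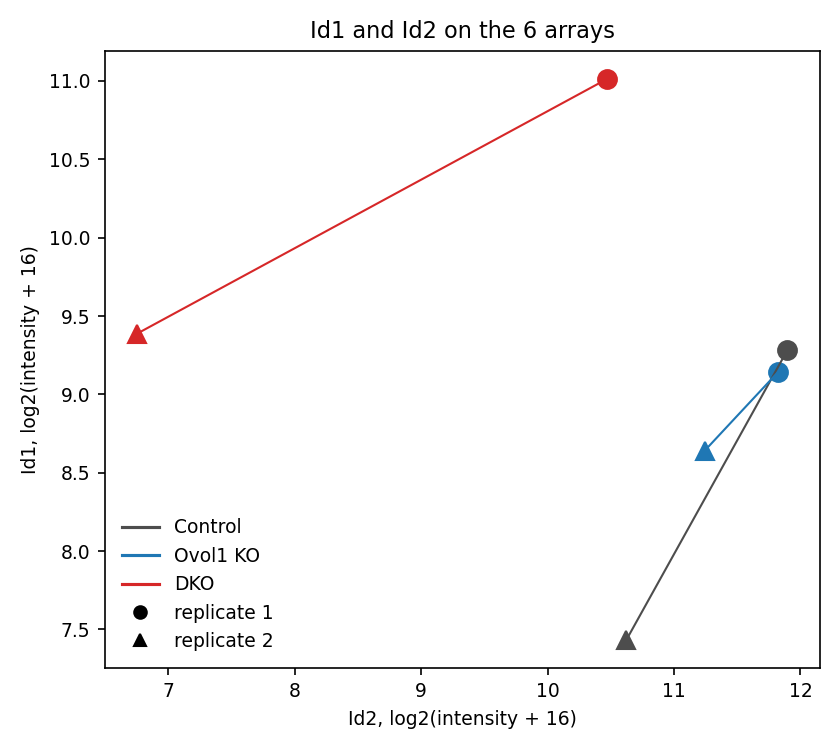
Level of Id1 (vertical) against Id2 (horizontal), both log2(intensity + 16), on the 6 arrays, with a line joining the replicates of a genotype. Both DKO arrays lie above and to the left of all others, from 6.75 to 10.47 in Id2 and 9.39 to 11.01 in Id1. The margin is small for DKO 1 in Id2 (10.47, with control 2 at 10.62). It is also small for DKO 2 in Id1 (9.39, with control 1 at 9.28).

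The promoter of Id2 is shown because Id2 had the widest range of the 10 genes, 5.14 over the arrays. RefSeq promoter windows were found for 6 of the 10 members. The 250 bases before its start, chr12:25096093-25096342 on the minus strand of GRCm38.p6, are printed with any E-box (CANNTG) and the GC-rich element bound by BMP Smads (GGCGCC) in capitals.
Id2 promoter: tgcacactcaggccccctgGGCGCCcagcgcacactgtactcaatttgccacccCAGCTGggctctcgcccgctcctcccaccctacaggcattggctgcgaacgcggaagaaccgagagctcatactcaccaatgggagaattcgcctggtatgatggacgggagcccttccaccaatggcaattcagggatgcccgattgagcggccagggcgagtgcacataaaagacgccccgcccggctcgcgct
It holds 1 GGCGCC, starting 231 bases before the start, and 1 E-box, CAGCTG, starting 196 bases before it. Among 32851 windows of this length, searched on both strands, 9.59% hold GGCGCC, 66.2% hold CANNTG, 17.2% hold CAGGTG, the E-box that Zeb and Snail proteins prefer and 1 form of CANNTG, and 2.18% hold CCGTTA, the core that Ovo-type factors bind. Neither CAGGTG nor CCGTTA is in the printed window. A match to letters is a description and not a bound site.

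Over the 10 genes together, the median difference was 0.07 in DKO against control, 0.08 in Ovol1 KO against control and 0.07 in DKO against Ovol1 KO. The medians over all genes were 0.02, -0.06 and 0.09. In DKO against control 4 members were higher without overlap, beside 23.1% of all genes, and 2 lower, beside 21.5% (44.6% in all). In Ovol1 KO against control 1 was higher, beside 5.8%, and 1 lower, beside 18.3% (24.1% in all). In DKO against Ovol1 KO 3 were higher, beside 26.1%, and 2 lower, beside 16% (42.2% in all). The family did not move as a whole: 5 of the 10 differences in DKO against control were above 0, from -2.65 for Id2 to 3.61 for Zeb1.

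Genes known to answer to these regulators, or to work with them, were counted from lists of known members. These lists were chosen with earlier results of these data known. Their counts beside the share of all genes are therefore a description and not a test. Counts with the Xist covariate have the limit given above for Zeb1 and do not separate genotype from the split by Xist. In DKO against control, 14.5% of all genes had an unadjusted p below 0.05. For called genes the shares were 0.943% higher and 2.26% lower, which stand beside every list below, cell type markers included. Of 26 epithelial genes known as Zeb or Snail targets, 11 fell, 0 rose and 15 did not pass in DKO against control, beside 2.26% of all genes called lower. Their median difference was -1.06. Epcam, an epithelial adhesion molecule, fell by 3.05, the simple-epithelium keratin gene Krt8 fell by 3.81, the tight junction claudin gene Cldn7 fell by 5.41 and Cldn3 fell by 4.06. In DKO, Cldn7 lay at 4.52 and 4.51, below the olfactory median, and Cldn3 at 7.57 and 6.96, around their 95th percentile, so the sizes of these differences depend on the background level and the offset. The same holds for Crb3, Bmp6, Prrx2 and Foxc2, whose DKO means lay below that percentile, and for Ddr2, whose control mean did. Between 8 and 13 of these genes were called lower with single arrays left out, and 0 with the Xist level as a covariate. In DKO against Ovol1 KO 10 fell, beside 1.49% of all genes. That count was 5 to 13 with single arrays left out, the lowest without Ovol1 KO 1, and 5 with the covariate.

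Other members of this list, named after their values were seen, passed or missed the threshold. Crb3, which encodes an apical polarity protein, lay at 10.57 and 9.42 in control and 7.03 and 6.69 in DKO, and fell by 3.13 (SE 0.47, limma adjusted p = 0.021). Ap1m2, a subunit of the epithelial clathrin adaptor, lay at 11.05 and 11.09 against 8.70 and 7.50 and fell by 2.97 (SE 0.36, adjusted p = 0.0093). Lsr, a tricellular junction receptor gene, fell by 1.25 (SE 0.19, adjusted p = 0.021). The differences of the polarity genes Patj (-1.33, adjusted p = 0.062) and Llgl2 (-0.87, adjusted p = 0.12) did not pass. Neither did those of Rab25 (-0.62, adjusted p = 0.11) and Mal2 (-2.25, adjusted p = 0.078), which act in vesicle transport.

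Cdh1, the E-cadherin gene and classical target of Zeb1, Snai1 and Twist1, lay at 12.93 and 12.92 in control, 12.94 and 13.02 in Ovol1 KO, and 12.60 and 12.74 in DKO. Both DKO values were below the others, at -0.26 from control (SE 0.08, adjusted p = 0.21), which did not pass. The splicing regulator genes Esrp1 and Esrp2, also known Zeb1 targets, differed by 0.13 (adjusted p = 0.86) and 0.15 (adjusted p = 0.85). The list thus held both called falls and members that did not pass.

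**Figure D4:**
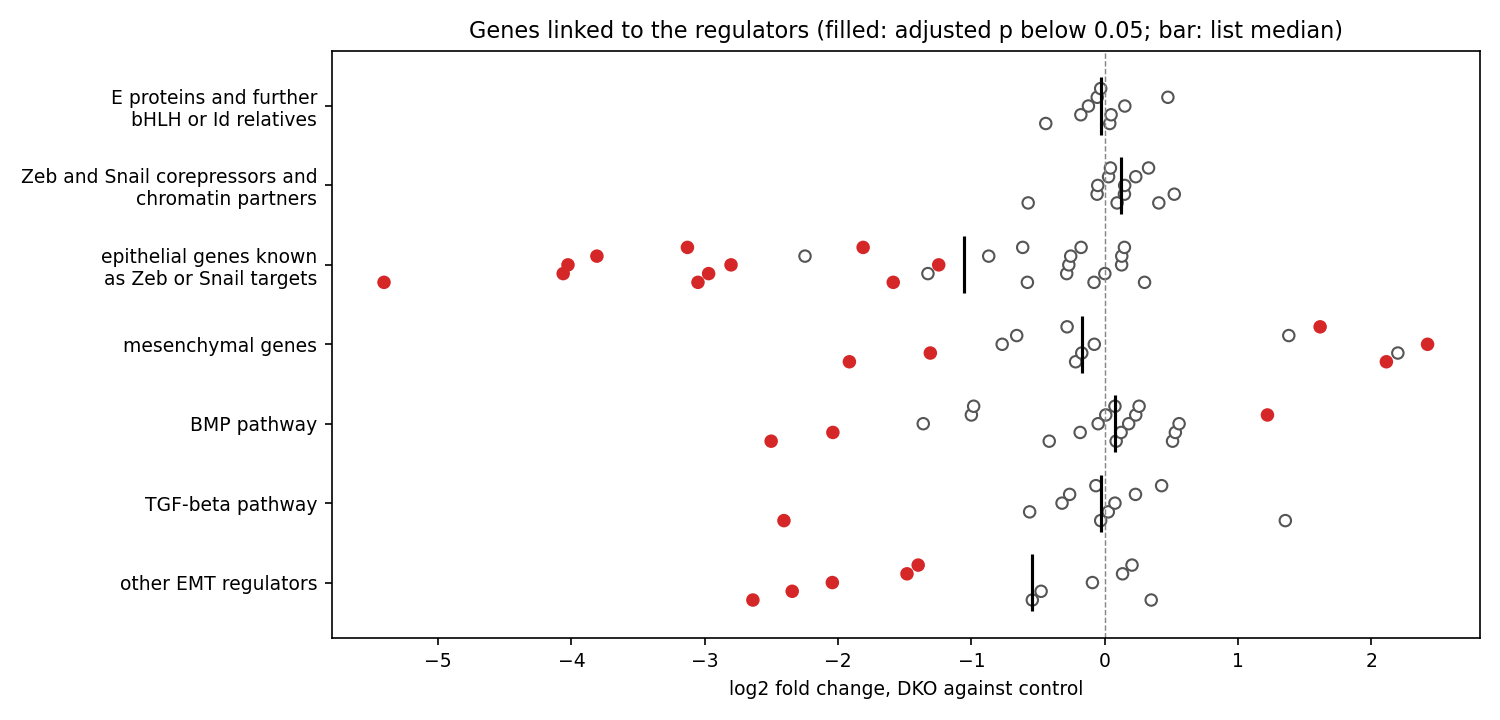
Difference in DKO against control (log2 fold change, horizontal axis) for each measured gene of 7 lists linked to the regulators, filled where called, with a bar at the list median. Called falls reach -5.41 for Cldn7 among the epithelial targets, whose median is -1.06, while partners of the regulators lie near 0.

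Among 13 mesenchymal genes the calls in DKO against control were 3 higher and 2 lower, 8 genes did not pass, and the median was -0.17. Tgfbi, a secreted matrix protein gene, rose by 2.42, Ddr2, a receptor for collagen, by 2.11 and Mmp2, a gelatinase, by 1.62. Fn1, which encodes fibronectin, fell by 1.92. Cdh2, the N-cadherin gene whose rise often accompanies that of Zeb1 in EMT, fell by 1.31 (SE 0.25, limma adjusted p = 0.043). With single arrays left out the rises numbered 1 (without DKO 1) to 5 (without control 1) and the falls 0 to 2, with 0 without control 1, DKO 1 or DKO 2 and 1 without either Ovol1 KO array. With the Xist covariate 0 of either was called.

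Vim, the gene of the intermediate filament vimentin, lay at 11.998 and 9.187 in control, 10.92 and 11.79 in Ovol1 KO, and 12.94 and 12.65 in DKO. Its difference of 2.20 in DKO did not pass (SE 0.80, limma adjusted p = 0.27). From lowest to highest, the 6 arrays stood in the same order for Vim as for Zeb1, an observation made after the values were seen. Like Zeb1, Vim differed widely between the control arrays.

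Partners of the regulators differed little. Of 9 E protein and related helix-loop-helix genes, limma called 0 in DKO against control and 2 had an unadjusted p below 0.05. These were Tcf4, which encodes an E protein, at 0.47 (adjusted p = 0.31) and Hand1 at -0.44 (adjusted p = 0.33), while Id4, the remaining Id gene, differed by 0.15 (adjusted p = 0.85). Of 12 corepressor and chromatin genes, limma called 0 and 3 had an unadjusted p below 0.05. Ctbp2, whose protein is a corepressor of Zeb1, lay at 10.84 and 10.82 in control and 10.30 and 10.20 in DKO (-0.57, adjusted p = 0.11), and the deacetylase gene Hdac2 at 10.70 and 10.87 against 11.34 and 11.27 (0.52, adjusted p = 0.16).

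Signals upstream of the Id and Zeb genes held called members. Of 19 BMP pathway genes 1 rose and 2 fell in DKO against control, 16 did not pass, and the median was 0.08. Fst, which encodes follistatin, an antagonist of activins and some BMPs, lay at 11.05 and 10.99 in control, 11.07 and 11.26 in Ovol1 KO, and 8.42 and 8.61 in DKO. It fell by 2.50 (SE 0.17, limma adjusted p = 0.0015), with no overlap between DKO and the other arrays.

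The ligand gene Bmp6 fell by 2.04 (SE 0.29, adjusted p = 0.016), and the receptor gene Bmpr1b rose by 1.22 (SE 0.23, adjusted p = 0.043). Bmp7, another ligand gene, differed by 0.56 (adjusted p = 0.098). The BMP rise was lost with every single array left out, and the falls numbered 1 (without DKO 2) to 3. Of 11 measured TGF-beta pathway genes 0 rose, 10 did not pass and 1 fell. The ligand gene Tgfb2 fell by 2.41 (SE 0.30, adjusted p = 0.010), and the list had 0 falls without DKO 1 or DKO 2 and 1 rise without control 2. Called counts of both lists in DKO against control were 0 with the Xist covariate. In DKO against Ovol1 KO, 1 BMP fall was called with it.

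Of 11 other EMT regulators 5 fell, 0 rose and 6 did not pass in DKO against control, with a median of -0.54. Of all genes, 2.26% were called lower. The homeobox gene Prrx2 fell by 2.34 (SE 0.22, limma adjusted p = 0.0037), and the chromatin protein gene Hmga2 fell by 1.40 (SE 0.17, adjusted p = 0.0096). The forkhead gene Foxc2 fell by 2.64, its relative Foxc1 fell by 2.04, and Sox9 fell by 1.48, each opposite in sign to Zeb1. Between 3 (without DKO 2) and 5 falls were called with single arrays left out, and 0 with the Xist covariate. In Ovol1 KO against control, limma called 0 genes in each of these 7 lists, and 0 of their genes had an unadjusted p below 0.05.

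Zeb1, as the called member, was matched with the 5 genes of most similar pattern, by the root mean square difference of levels centred per gene over the 6 arrays. These were Igfbp4, which encodes a binding protein of insulin-like growth factors (0.44), the matrix gene Postn (0.44), the keratin gene Krt10 (0.48), the glypican gene Gpc3 (0.49) and the decoy receptor gene Il22ra2 (0.50). Igfbp4 lay at 7.85 and 7.19 in control, 6.77 and 7.56 in Ovol1 KO, and 11.19 and 10.62 in DKO. The match is a description of 6 arrays, in which the DKO arrays set most of the pattern.

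The cultures could hold other cells that express these regulators, and in bulk RNA fewer cells of a type and less RNA per cell cannot be told apart. Fibroblasts express Zeb1, Vim and Twist genes. Of 11 fibroblast markers 1 rose (Postn), 1 fell (Pdgfra) and 9 did not pass in DKO against control, and their summed intensity was 3870 and 4367 in control, 3431 and 4280 in Ovol1 KO, and 9100 and 8986 in DKO. Postn lay at 11.14 and 10.49 in DKO against 7.38 and 5.94 in control, and Thy1 at 10.96 and 11.23 against 9.86 and 8.12. The defining collagen gene Col1a1 lay at 8.47 and 8.91 in DKO against 8.43 and 8.55, and Lum was at 5.02 and 5.28 against 5.24 and 5.45. The part of fibroblasts in the Zeb1 result was not tested.

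Melanocytes express Zeb2, Snai2 and Id genes. Of 9 melanocyte markers 0 rose, 1 fell (Kit) and 8 did not pass, and their summed intensity was 5292 and 1471 in control, 6931 and 1563 in Ovol1 KO, and 1984 and 1159 in DKO. Replicate 1 was thus higher in each genotype, as it was for Id1 and Id2. The gap between the DKO arrays was the smallest of the 3 for the melanocyte sum. For Id2 it was the widest in log2 levels but not in linear intensities, where the control gap was wider. Dct, an enzyme gene of pigment synthesis, lay at 9.75, 10.45 and 8.01 on replicate 1 and at 5.28, 5.29 and 5.31 on replicate 2, in the order control, Ovol1 KO and DKO. The part of melanocytes in the Id and Zeb2 values was not tested.

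Markers of other cell types gave few calls in DKO against control. Limma called 0 of 6 endothelial markers, of which 2 had an unadjusted p below 0.05, and their sum was 2007 and 924.2 in control, 1552 and 911.7 in Ovol1 KO, and 585.2 and 671.5 in DKO. The endothelial receptor gene Kdr lay at 10.49 and 8.51 in control and 6.79 and 6.65 in DKO (adjusted p = 0.090). Kdr does not stand for its list: the median difference of the 6 endothelial markers was 0.03, and 3 were above 0. Limma called 0 of 7 Langerhans cell and macrophage markers, cells that express Zeb2 and Id2, with 0 below an unadjusted 0.05 and sums from 826.1 to 1062. The Langerhans cell gene Cd207 stayed between 6.33 and 6.59.

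Limma also called 0 of 4 T cell markers (0 below an unadjusted 0.05, sums 282.4 to 447.1) and 0 of 5 pericyte and muscle markers (1 below 0.05, sums 1250 to 1988). Of 3 Schwann cell markers 1 fell, Mbp, with sums of 1854 to 2041 in control and Ovol1 KO and 1139 and 1241 in DKO. The median difference of these 3 was 0.04, and 2 were above 0. Among 10 keratinocyte markers 3 rose (Krt1, Krt10 and Lor), 1 fell (Itgb4) and 6 did not pass. Their sum was 49360 and 53900 in control, 51330 and 53300 in Ovol1 KO, and 96250 and 71080 in DKO.

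**Figure D5:**
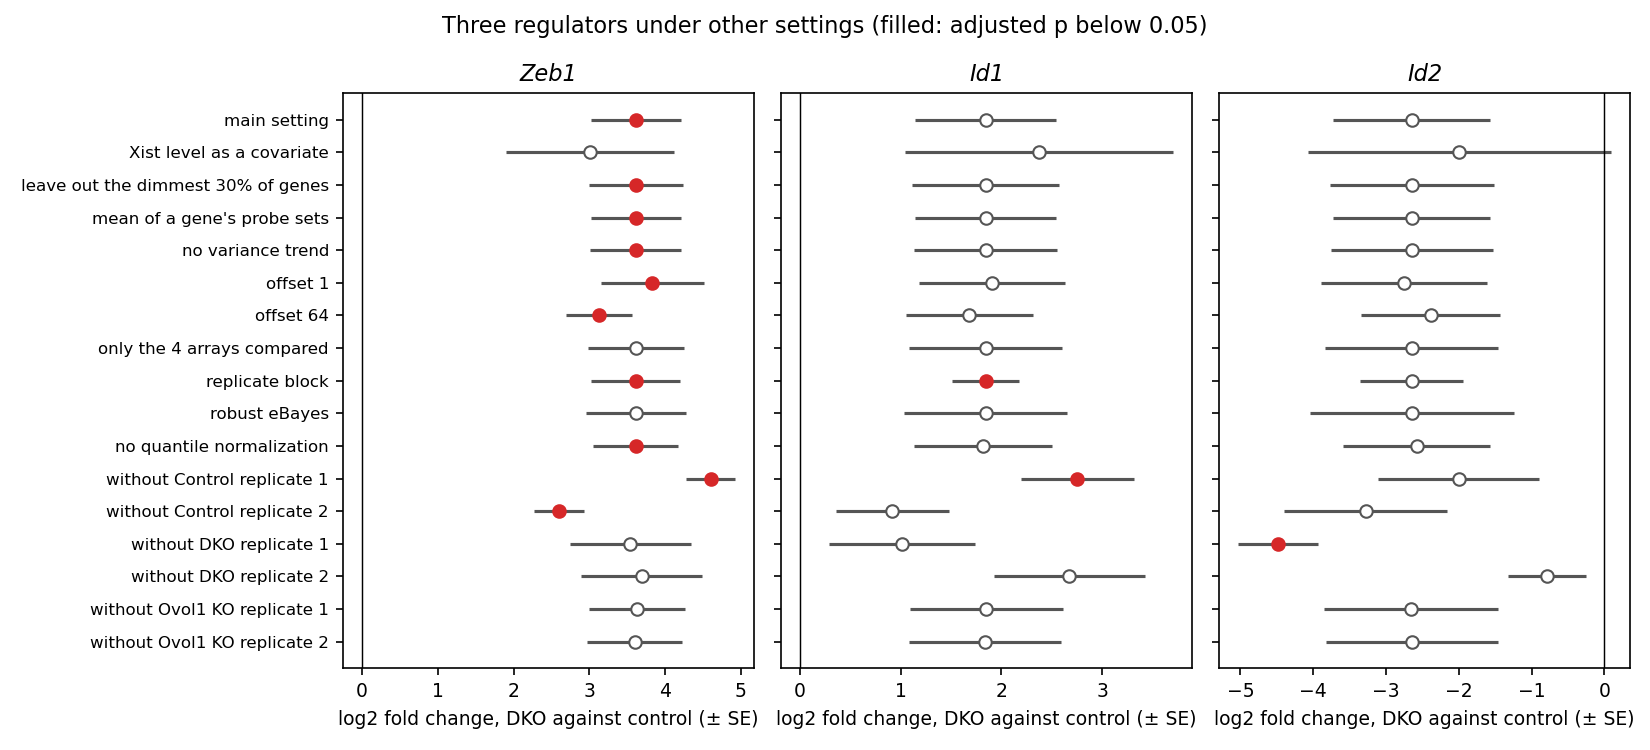
Difference in DKO against control (log2 fold change ± SE, horizontal axis) for Zeb1, Id1 and Id2 under the main setting, other settings and with each array left out, filled where called. Zeb1 stays between 2.60 and 4.60, while Id2 runs from -4.48 without DKO replicate 1 to -0.78 without DKO replicate 2.

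The plot of single settings shows how far Id1 and Id2 moved with 1 array. The pooled SD within groups was 1.03 for Id1 and 1.62 for Id2, against 0.86 for Zeb1, 0.20 for Snai1 and 0.05 for Twist1.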

How the data were processed

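The authors deposited 1 intensity per probe set and array on a linear scale, already summarised from probes. Affymetrix Expression Console 1.1.1 and PLIER 2.0 appear, with no role, in the submitters' processing notes. Background correction and normalization are otherwise not stated. Array medians ran from 174.2 to 203.6. Intensities of 35556 probe sets were increased by 16, log2-transformed and quantile-normalized. Of these, 21789 carried 1 gene symbol, and the brightest per gene was kept. For 21698 of them the Entrez identifier matched RefSeq (GRCm38.p6). Means per group were fitted over all 6 arrays in limma 3.58.1 (R 4.3.3), with a variance trend in eBayes, 3 residual degrees of freedom and Benjamini-Hochberg adjustment. All members are named. Each linked list contributes up to 4 genes of smallest p, and other genes of those lists, and the single cell type markers, were named after their values were seen. The members and lists were chosen with earlier results of these data known. The procedure was tested on simulated data, where it recovered signs and sizes but missed most of the smaller and part of the larger changes, so a gene that did not pass may still differ. A first criterion on the share recovered was not met and was replaced by criteria on sign, size and false calls. Alternatives were other offsets, no quantile normalization, a filter on dim genes, other eBayes settings, averaged probe sets, 4 arrays only, a replicate block, an Xist covariate and each array left out.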

Additional observations from a re-analysis of the deposited data

How the results depend on the processing

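With 2 arrays a group, precision is limited by their number, and a fit without 1 array assumes that the lone sample varies like the other groups. The number of members called in DKO against control was 1 in the main setting, 0 with only the 4 arrays compared, robust eBayes or the Xist covariate, and 0 to 2 with single arrays left out. In DKO against Ovol1 KO it was 1, then 0 with robust eBayes or the Xist covariate, and 0 to 1 with single arrays left out. The cause was not tested. Same-numbered arrays deviated together for control and Ovol1 KO (r = 0.69 across genes), but weakly for control and DKO (0.15) and Ovol1 KO and DKO (0.087), so the numbers are not taken as pairs. With the replicate block, 2 members were called in DKO against control, Zeb1 and Id1 (1.84, limma adjusted p = 0.040), and all genes called higher and lower became 301 and 768 (188 and 451 without it). In DKO against Ovol1 KO they became 225 and 580 (131 and 298 without it), and the call of Zeb1 did not change. With the Xist covariate the counts were 3 and 5 against control and 18 and 55 against Ovol1 KO. The covariate's slope rests almost only on the 2 Ovol1 KO arrays, so these counts do not separate genotype from the split by Xist. With only the 4 arrays compared, DKO against Ovol1 KO gave 239 and 499. Single arrays left out gave 67 to 188 higher and 193 to 545 lower against control, 23 to 233 and 65 to 503 against Ovol1 KO, and 0 to 1 and 0 to 3 in Ovol1 KO against control. Among uncalled members, the sign of the difference turned for Id3 in DKO against control (-0.18) and in Ovol1 KO against control (-0.20) with the Xist covariate, which also turned Snai2 (-0.008) and Snai3 (0.009) in Ovol1 KO against control and Twist1 (-0.001) in DKO against Ovol1 KO. Without quantile normalization Snai3 turned in Ovol1 KO against control (0.006). With single arrays left out, ranges that crossed 0 against control in DKO were -0.19 to 0.77 for Id3, -0.23 to 0.18 for Snai1 and -0.301 to 0.072 for Snai2. In DKO against Ovol1 KO they were -0.21 to 0.74 for Id3 and -0.12 to 0.29 for Snai1. In Ovol1 KO against control they were -0.39 to 1.45 for Id1, -0.36 to 0.91 for Id2, -0.21 to 0.26 for Id3, -0.23 to 0.01 for Snai1, -0.033 to 0.305 for Snai2, -0.171 to 0.078 for Snai3, -1.13 to 0.90 for Zeb1 and -0.19 to 0.60 for Zeb2. The filter on dim genes left 7 of the 10 members to test.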
